A study of Homo sapiens with 6 samples.

Results

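The numbered zinc finger genes of the short arm of chromosome 19 were measured in HCT-8, an established colorectal cancer cell line. They were taken as every protein-coding gene of the count table with a symbol of ZNF and a number and a GRCh38 start below position 26000000 on chromosome 19. The rule found 83 genes, and 53 of them had a count of at least 10 in at least 3 of the 6 libraries and are reported as expressed. The 53 were chosen by these measured counts, so their levels are a description and carry no test. The cells had been transfected with a control hairpin plasmid (shNC, 3 libraries) or with a plasmid carrying a hairpin against PNISR, a gene for an arginine- and serine-rich nuclear protein (shPNISR, 3 libraries). The series was made to ask how PNISR affects splicing, and gene-level counts do not measure splicing. The labels give no time after transfection, and do not say whether the libraries of a group came from separate cultures, so every p-value here measures only the spread between these libraries, which may be technical.

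Most of these genes encode C2H2 zinc finger proteins. Each finger holds a zinc ion between a pair of cysteines and a pair of histidines, and an array of fingers joined by short linkers reads a stretch of DNA. Many also carry a KRAB box near the start of the protein, which recruits the corepressor TRIM28 and through it the histone methyltransferase SETDB1 and heterochromatin proteins. Such proteins are best known for silencing transposable elements. The genes arose by repeated tandem duplication, and on chromosome 19 they lie in clusters of close relatives.

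A stretch of coding DNA for 1 finger is shown for 5 genes, because the likeness of these copies bears on how well reads can be assigned to each. ZNF253, ZNF506, ZNF93 and ZNF91 lie in the same cluster and ZNF317 in another. The sequences are from GENCODE 29 transcripts, 5′ to 3′, and the capitals mark the cysteine and histidine codons. Each stretch is 78 bases long and ends with the codons of the linker. It codes for the first finger of the protein that the linker follows. This was finger 3 for ZNF91 and finger 1 for each of the others, so the positions are not matched.
ZNF253: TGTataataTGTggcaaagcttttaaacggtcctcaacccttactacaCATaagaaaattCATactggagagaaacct
ZNF506: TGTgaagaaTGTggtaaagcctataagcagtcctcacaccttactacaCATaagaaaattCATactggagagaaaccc
ZNF93: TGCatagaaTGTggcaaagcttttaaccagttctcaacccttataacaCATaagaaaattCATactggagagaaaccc
ZNF91: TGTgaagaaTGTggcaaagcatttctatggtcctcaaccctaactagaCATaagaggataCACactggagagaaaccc
ZNF317: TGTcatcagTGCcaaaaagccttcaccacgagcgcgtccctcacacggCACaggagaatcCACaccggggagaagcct

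All 83 genes had a coding sequence in the annotation, and the translated proteins held from 0 to 39 fingers by the pattern of 2 cysteines and 2 histidines, with a median of 13. ZNF729 had the 39, ZNF208 had 36 and ZNF91, a known repressor of retrotransposons, had 32. ZNF738 held no finger in its 137 residues. A KRAB A-box pattern was found in 76 of the 83, of which 47 were expressed and 29 were not. The 7 without a match were ZNF358, ZNF414, ZNF121, ZNF653, ZNF491, ZNF714 and ZNF492, and no match says only that these letters were not found in the first 150 residues. Identity to the closest relative among the 83 ran from 31.4% to 97.9%, with a median of 76.9%. The pair with 97.9% was ZNF492 and ZNF98.

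Promoters are shown for 4 genes, since those of the cluster nearest the centromere shared a motif. ZNF431 and ZNF708 were expressed members of that cluster, ZNF93 was a member that was not, and ZNF121 belonged to another cluster. The windows are RefSeq's on GRCh38.p14, each 300 bases long, 5′ to 3′ on the gene's strand. ZNF431 is at chr19:21141790-21142089 on the plus strand, ZNF708 at chr19:21329361-21329660 on the minus strand, ZNF93 at chr19:19900696-19900995 on the plus strand and ZNF121 at chr19:9584455-9584754 on the minus strand. Capitals mark CCAAT or its reverse complement ATTGG.
ZNF431: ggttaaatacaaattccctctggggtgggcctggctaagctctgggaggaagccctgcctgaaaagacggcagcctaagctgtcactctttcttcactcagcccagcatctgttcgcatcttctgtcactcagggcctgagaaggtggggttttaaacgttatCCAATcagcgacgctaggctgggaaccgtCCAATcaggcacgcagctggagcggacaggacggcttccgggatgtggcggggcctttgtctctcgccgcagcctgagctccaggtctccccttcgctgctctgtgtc
ZNF708: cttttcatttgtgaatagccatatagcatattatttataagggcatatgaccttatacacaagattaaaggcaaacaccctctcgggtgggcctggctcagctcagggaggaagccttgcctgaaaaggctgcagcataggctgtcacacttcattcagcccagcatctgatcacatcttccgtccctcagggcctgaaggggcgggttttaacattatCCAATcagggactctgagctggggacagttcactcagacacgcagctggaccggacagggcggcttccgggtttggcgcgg
ZNF93: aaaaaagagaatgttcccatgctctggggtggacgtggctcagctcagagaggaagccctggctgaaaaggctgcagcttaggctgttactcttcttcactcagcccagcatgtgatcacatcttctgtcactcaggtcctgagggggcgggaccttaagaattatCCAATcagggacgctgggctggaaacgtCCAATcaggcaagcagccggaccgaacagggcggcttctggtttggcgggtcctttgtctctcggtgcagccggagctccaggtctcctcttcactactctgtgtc
ZNF121: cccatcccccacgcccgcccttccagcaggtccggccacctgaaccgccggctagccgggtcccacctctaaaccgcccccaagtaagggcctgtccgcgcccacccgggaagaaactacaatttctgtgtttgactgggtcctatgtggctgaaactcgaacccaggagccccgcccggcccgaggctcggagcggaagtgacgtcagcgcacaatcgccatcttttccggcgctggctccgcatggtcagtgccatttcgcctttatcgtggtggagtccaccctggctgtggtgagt

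The promoter table held 73 of the 83 genes, 50 expressed and 23 not. CCAATCAG, searched on both strands and chosen after the promoters were seen, was in all 29 promoters of the cluster nearest the centromere and in 21 of 24 in the cluster between ZNF653 and ZNF791. It was also in 4 of 5 in the cluster between ZNF554 and ZNF77. In the cluster between ZNF557 and ZNF846 it was in 0 of 14, and the promoter of ZNF333, which stands alone, did not have it. Of all 27305 promoters held by RefSeq's set, 4.16% had it. The motif contains CCAAT, which was in 37 of the 50 promoters of expressed genes and in all 23 of the others, against 35.7% of all promoters. By expression, CCAATCAG was in 33 of the 50 promoters of expressed genes and in 21 of the 23 of the others. Both motifs differed by cluster, which these splits by expression do not take into account. In the cluster nearest the centromere, both were in all 17 promoters of expressed genes and in all 12 of the others. The cluster between ZNF557 and ZNF846, where 13 of 15 genes were expressed, had CCAAT in 4 of 14. CCGGAA was in 23 of the 29 promoters of the cluster nearest the centromere, against 17.6% of all promoters. CACGTG was in none of the 73, against 7.43% of all promoters, and TATAAA was in 3 of the 50 and 0 of the 23, against 11.95%. A match is a description of the letters and not a binding site.

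The 6 libraries held 15049485 to 17977803 counts. PNISR, the targeted gene, had 56.1 ± 6.32 CPM (counts scaled to library size with TMM factors; SD, n = 3) in shNC and 22.3 ± 4.74 in shPNISR, and no library of one group reached the other. Its log2 fold change was −1.33 ± 0.15 (SE), with an adjusted p of 8.73e-05 by edgeR's quasi-likelihood test with Benjamini-Hochberg adjustment over the 16102 genes tested. All 10 epithelial markers were in the table, with a summed level of 4376 to 5007 CPM in shNC and 4901 to 6144 in shPNISR. Of the 9 tested, 2 passed as higher, where 2.3% of all genes tested did. The 6 leukocyte markers summed to 3.53 to 4.86 and 4.09 to 5.58 CPM, with PTPRC at 0 and 4 of the 6 below 1 CPM. Of the 3 tested, 1 passed as lower, where 0.832% of all genes tested did. The 8 fibroblast markers summed to 16.2 to 24.8 and 24.6 to 28.96 CPM, with COL1A2 and FAP at 0. The 4 endothelial markers summed to 0.718 to 1.49 and 1.41 to 1.66 CPM. The part of these markers in the results below was not tested.

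By position the 83 genes fell into 5 clusters, a new cluster beginning where neighbouring starts lay more than 1 Mb apart. From the end of the arm inwards they were cluster 1, ZNF554 to ZNF77 (chr19:2819874-2944971, 4 of 5 genes expressed), cluster 2, ZNF557 to ZNF846 (chr19:7069444-9793180, 13 of 15) and cluster 3, ZNF653 to ZNF791 (chr19:11483427-12640098, 16 of 25). ZNF333, cluster 4, stood alone at chr19:14689801-14733746 and was expressed. Cluster 5, nearest the centromere, ran from ZNF101 to ZNF254 (chr19:19668796-24129961), with 19 of 37 genes expressed.

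Genes below the limit lay among expressed ones. Of the 30 genes below the limit, 10 had a count of 0 in every library, and 7 of those 10 were in cluster 5. The 10 were ZNF177, ZNF560, ZNF625, ZNF626, ZNF257, ZNF729, ZNF98, ZNF99, ZNF728 and ZNF730. No library held more than 10 counts of any of the 30. For 6 of the 30, against 2 of the 53 expressed genes, over 40% of the exon bases also belonged to other annotated genes. The 6 were ZNF177 (90.8%), ZNF625 (83.3%), ZNF709 (79.2%), ZNF564 (69.9%), ZNF20 (58.8%) and ZNF763 (48.2%), so their counts are uncertain. All but ZNF177 lie in cluster 3, so its number of expressed genes is uncertain too. The count of ZNF98 is uncertain too, as 31.0% of its 75-base stretches were shared with other genes. The read-through gene ZNF559-ZNF177 had 0, 2 and 1 counts in shNC and 0, 3 and 0 in shPNISR, and ZNF625-ZNF20 had 0 in all 6 libraries.

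**Figure D1:**
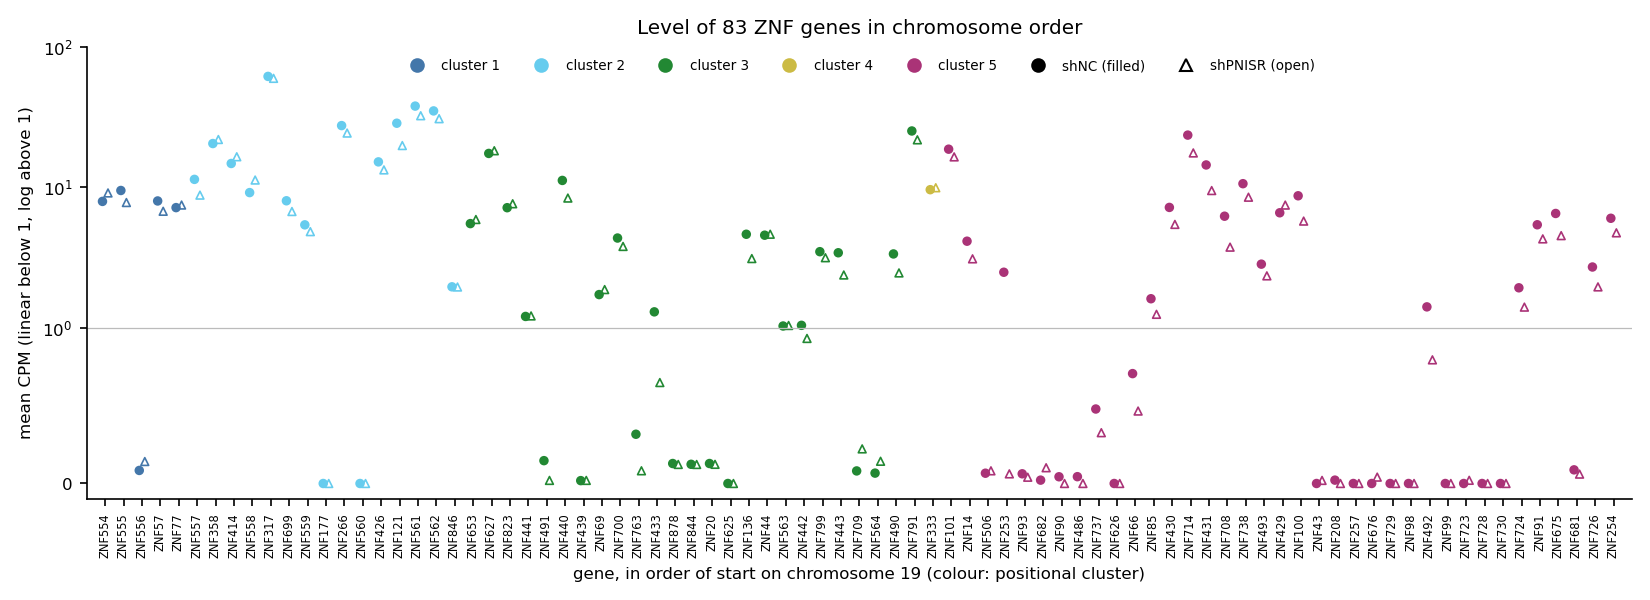
Mean TMM-scaled CPM of the 83 genes in order along the arm (linear below 1, log above 1), with filled circles for shNC, open triangles for shPNISR and colour for the cluster. ZNF317 is the highest, and clusters 2, 3 and 5 hold expressed genes beside genes at 0.

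Levels per length were low. Per kb of exon, the 53 expressed genes ran from 0.150 to 11.99 CPM, with a median of 1.09, against a median of 4.15 over all genes tested. ZNF317 had the most, with 61.7 ± 4.68 CPM in shNC and 59.8 ± 2.78 in shPNISR and a log2 fold change of −0.05 ± 0.11. Just inside the limit lay ZNF66, with counts of 11, 13 and 10 in shNC and 10, 7 and 6 in shPNISR. ZNF433 had 17, 27 and 18 against 13, 11 and 8, and ZNF442 had 17, 12 and 21 against 17, 9 and 20. Just outside lay ZNF737 (7, 10, 6 against 3, 4, 9), ZNF763 (4, 3, 8 against 1, 2, 1) and ZNF709 (2, 1, 1 against 5, 3, 3). No change can be read from counts this low, and those of ZNF763 and ZNF709 are uncertain also for the exon bases they share with other genes.

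ZNF253 was the member that changed most. It lies at chr19:19865886-19894674 on the plus strand (ENSG00000256771) and encodes a KRAB protein of 499 residues with 11 fingers. The shNC libraries held 55, 30 and 37 of its reads, the shPNISR libraries 0, 2 and 1. In CPM these were 3.04, 1.94 and 2.46 against 0, 0.124 and 0.0613. Every shPNISR library lay far below every shNC library. The mean was 2.48 ± 0.547 CPM in shNC and 0.0618 ± 0.0620 in shPNISR (SD, n = 3), and 2.42% of the shNC level was left, with an exact 95% interval of 0.493% to 7.25% that covers counting error only. The log2 fold change was −5.19 ± 0.56, with an adjusted p of 5.74e-05 by edgeR's quasi-likelihood test with Benjamini-Hochberg adjustment. It passed in all 17 alternatives run, with an adjusted p of at most 0.00745, and leaving out 1 library moved the fold change between −6.05 and −4.63. ZNF253 met the rule for expressed genes only through the shNC libraries. In bulk RNA, fewer cells with the transcript and less of it per cell cannot be told apart.

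Of the ZNF genes near ZNF253, ZNF101 and ZNF14 had no such drop, while ZNF506 and ZNF93 had too few counts in shNC to show a drop. ZNF101 had 383, 262 and 270 counts in shNC and 295, 270 and 248 in shPNISR. ZNF14 had 65, 67 and 67 against 38, 47 and 67. The groups overlapped for each of them. ZNF506, the closest relative at 78.4% identity, was near 0 throughout, with 0, 1 and 2 counts against 1, 1 and 2. ZNF93, the next gene in the cluster, had 1, 1 and 1 against 1, 0 and 1. Of the 75-base stretches of ZNF253, 1.49% were shared with another gene. An antisense gene, AC011477.3, overlaps its exons and had 0, 0 and 4 counts in shNC and 0, 0 and 0 in shPNISR. Whether reads of ZNF253 were assigned to other genes was not tested. In the whole table ZNF253 was the only gene with at least 20 counts in every shNC library and at most 5 in every shPNISR library, limits that were set after its values were seen. In the reverse direction 2 genes met the same limits, CDH11 and MAGEA12.

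**Figure D2:**
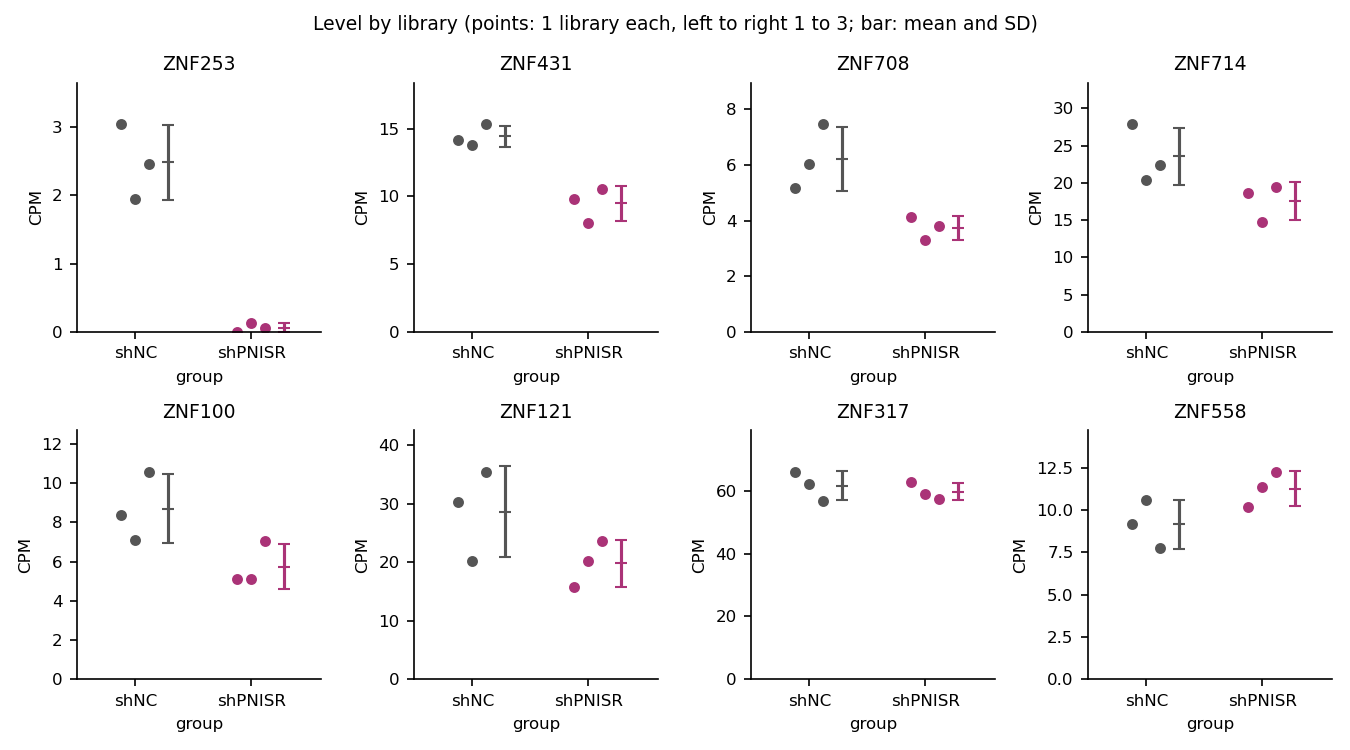
TMM-scaled CPM of 8 members in each library, 1 point per library, with the mean and SD of each group beside the points. All 3 shPNISR points of ZNF253 lie near 0, those of ZNF431, ZNF708, ZNF714 and ZNF100 lie under every shNC point, and those of ZNF121, ZNF317 and ZNF558 overlap with shNC.

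The other genes of cluster 5 had smaller fold changes. Of its 18 genes tested, 17 had a fitted fold change below 0 (94.4%), where 52.1% of all genes tested did. These 18 had a median GC content of 37.3%, and of all genes tested under 40% GC, 78.2% were below 0. The median log2 fold change of the cluster was −0.42. Without ZNF253 the median was −0.41, with 16 of 17 genes below 0. The summed level of the cluster was 136, 125 and 136 CPM in shNC and 96.9, 92.0 and 111 in shPNISR, so the groups did not overlap, and the shPNISR mean was 75.5% of the shNC mean.

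With all 6 libraries and edgeR, ZNF253 was the 1 gene of cluster 5 that passed. ZNF431, with 12 fingers, had 14.2, 13.8 and 15.3 CPM in shNC and 9.83, 8.06 and 10.5 in shPNISR. Its groups did not overlap, and its log2 fold change was −0.61 ± 0.17 with an adjusted p of 0.0542 by edgeR's quasi-likelihood test with Benjamini-Hochberg adjustment. ZNF431 passed as lower with DESeq2 (adjusted p 0.0249), with limma voom (0.0481) and in edgeR with no low-count filter (0.0287), while correction for GC content and length gave −0.40 (edgeR adjusted p 0.152). ZNF708 had 6.22 ± 1.15 against 3.74 ± 0.432 CPM (log2 fold change −0.73 ± 0.22, edgeR adjusted p 0.0802). ZNF100 had 8.70 ± 1.75 against 5.74 ± 1.13 CPM (−0.60 ± 0.21, edgeR adjusted p 0.136). ZNF714, which had no KRAB match, had 23.6 ± 3.84 against 17.6 ± 2.53 CPM (−0.42 ± 0.16, edgeR adjusted p 0.162). The groups did not overlap for 8 of the 18 tested genes of the cluster, these 4 and ZNF253 among them, all lower, where 9.58% of all genes tested were lower without overlap. Without ZNF253, which met the count rule only through shNC, it was 7 of 17. ZNF708, for example, had 5.19, 6.02 and 7.46 CPM in shNC and 4.15, 3.29 and 3.802 in shPNISR. ZNF492, with 1.41 ± 0.447 against 0.793 ± 0.378 CPM, is uncertain because it shares 24.5% of its 75-base stretches with other genes. So is ZNF724, which shares 42.8% and had a log2 fold change of −0.45 ± 0.34. ZNF429 was the 1 gene above 0, with a log2 fold change of 0.18 ± 0.19. With shNC 2 left out, ZNF431, ZNF708, ZNF100 and ZNF714 passed by edgeR, at adjusted p of 0.0153, 0.0358, 0.0237 and 0.0305, and so did ZNF121 of another cluster at 0.00478, where 4.52% of all genes passed as lower against 0.832% with all 6 libraries. With shNC 2 left out and GC content and length corrected as well, ZNF431, ZNF708, ZNF100 and ZNF714 did not pass, and ZNF121 and ZNF253 did. In that setting 1338 of all genes passed as lower, against 134 with all 6 libraries and no correction.

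Other cluster 5 genes lay in the same range. ZNF675, which encodes a protein known to inhibit signalling by TRAF6, had 7.12, 6.34 and 6.06 CPM in shNC and 4.20, 4.09 and 5.27 in shPNISR, without overlap (log2 fold change −0.53 ± 0.21, edgeR adjusted p 0.183). ZNF738, the gene with no finger, had 10.6 ± 1.14 against 8.50 ± 0.233 CPM, also without overlap. ZNF91 had 4.69, 6.67 and 4.86 CPM in shNC and 4.74, 3.23 and 4.91 in shPNISR. Its groups overlapped, so no difference was seen beyond the spread (−0.33 ± 0.23, edgeR adjusted p 0.485). ZNF101, the outermost gene, had 18.7 ± 2.18 against 16.5 ± 1.15 CPM and a log2 fold change of −0.18 ± 0.15.

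The libraries differed in how far cluster 5 was shifted. Measured as the median log2 CPM difference from the shNC mean, its genes stood at −0.57 in shPNISR 1, −0.66 in shPNISR 2 and −0.27 in shPNISR 3, while the shNC libraries stood at −0.03, −0.05 and 0.06. All 3 shPNISR libraries were below all 3 shNC libraries, and shPNISR 3 was nearest to them.

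**Figure D3:**
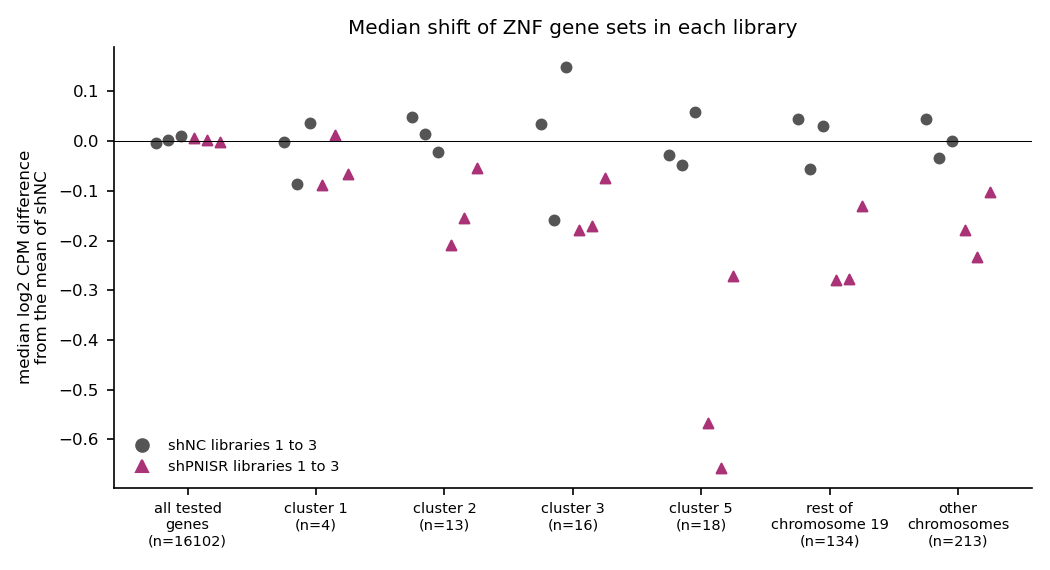
Median log2 CPM difference from the shNC mean over the tested genes of each set, 1 point per library, with circles for shNC and triangles for shPNISR. Cluster 5 has the lowest shPNISR points (−0.66, −0.57 and −0.27), while all genes tested stay near 0.

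The medians of clusters 1 to 4 were nearer 0 than that of cluster 5, a difference that was not tested. In cluster 2, 10 of 13 genes were below 0, with a median of −0.18, which was −0.09 without shPNISR 1 and −0.09 with GC content and length corrected. Its summed level was 285, 273 and 274 CPM in shNC and 244, 252 and 261 in shPNISR, which did not overlap. After ZNF317 the highest genes there were ZNF561 (37.9 ± 2.74 against 32.4 ± 1.28 CPM) and ZNF562 (35.0 ± 3.42 against 30.8 ± 3.19 CPM), and neither passed (edgeR adjusted p 0.345 and 0.491). ZNF121 varied widely within a group, with 30.3, 20.1 and 35.5 CPM in shNC and 15.7, 20.2 and 23.7 in shPNISR. The low shNC library was shNC 2, and the groups overlapped. ZNF121 passed as lower in edgeR with no low-count filter (adjusted p 0.018) and not with all 6 libraries and the filter (0.167). ZNF558 had the highest fitted fold change of all members, 0.30 ± 0.18, with 9.17 ± 1.45 against 11.3 ± 1.04 CPM (edgeR adjusted p 0.402). ZNF414, with 3 fingers and no KRAB match, had 14.8 ± 0.787 against 16.5 ± 1.33 CPM, and its log2 fold change of 0.16 ± 0.15 became −0.06 with the correction for GC content and length described below. ZNF557 had 11.8, 10.5 and 11.9 CPM in shNC and 9.30, 8.87 and 8.22 in shPNISR, which did not overlap, and did not pass (−0.37 ± 0.17, edgeR adjusted p 0.249).

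In cluster 3, 9 of 16 genes were below 0, with a median of −0.15. The median was −0.07 without shNC 3, −0.24 without shNC 2 and −0.24 without shPNISR 3, and −0.07 over genes with a mean of at least 1 CPM. The summed level of the cluster was 97.6 ± 2.78 CPM in shNC and 88.0 ± 1.91 in shPNISR. ZNF791 was the highest gene there, at 25.2 ± 2.91 against 21.8 ± 1.97 CPM, and ZNF627 had 17.4 ± 2.97 against 18.2 ± 1.65 CPM. ZNF440 had 11.2 ± 1.06 against 8.38 ± 0.846 CPM without overlap (−0.42 ± 0.17, edgeR adjusted p 0.212). ZNF433 had 1.30 ± 0.413 against 0.648 ± 0.143 CPM, and its log2 fold change of −0.98 ± 0.39 did not pass (edgeR adjusted p 0.192). ZNF443 and ZNF799 are uncertain here, since each is the other’s closest relative by protein identity and they share 26.6% and 18.3% of their 75-base stretches with other genes. The same holds for ZNF490 (59.8%). The 4 expressed genes of cluster 1 had a median of −0.09, which was −0.0089 without shNC 3. Among them ZNF554 stood at 0.20 ± 0.18, ZNF555 at −0.29 ± 0.19 and ZNF57 at −0.24 ± 0.19 on the log2 scale. ZNF333 had 9.62 ± 1.46 against 9.93 ± 1.12 CPM and a log2 fold change of 0.05 ± 0.18, which turned to −0.07 without shNC 3 and −0.03 without shPNISR 3.

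**Figure D4:**
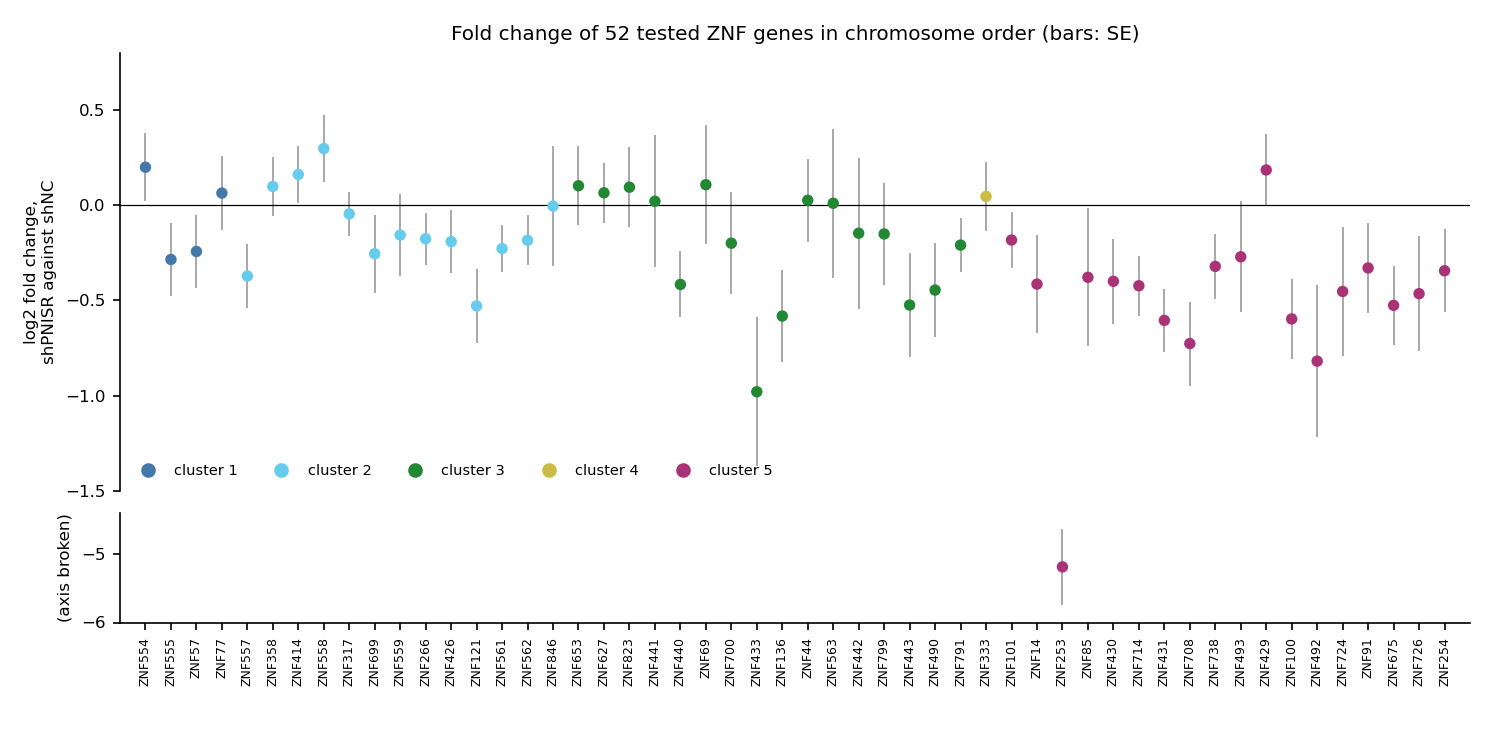
Log2 fold change of shPNISR against shNC for the 52 members tested, in order along the arm, with standard errors and a broken axis. In cluster 5, 17 of 18 genes lie below 0, and ZNF253 at −5.19 lies far below the rest.

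Over all 52 members tested, 1 passed as lower and 0 as higher, where 0.832% and 2.3% of all genes tested passed (3.14% in either direction). At an unadjusted edgeR p under 0.05, 11 members were lower and 0 higher, against 7.79% of all genes for lower and 17.8% in either direction. DESeq2 and limma voom also called 0 members higher, where they called 477 and 423 of all genes higher. With so small a share of all genes called higher, 0 of 52 members says little about the members. ZNF66 was the expressed member that the low-count filter removed. The groups did not overlap for 16 members, all lower, where 9.58% of all genes were lower without overlap and 11.5% higher. ZNF433, whose counts are too low to read a change from, is among both the 11 and the 16. So is ZNF253, which met the count rule only through the shNC libraries. Without ZNF253 these counts were 10 and 15 of 51 members. The median log2 fold change was −0.24, against −0.01 over all genes tested. It was −0.23 without ZNF253, and −0.23 over the 47 members with a count of at least 10 in all 6 libraries. The median stayed below 0 under each of the alternatives run. The summed level of all 83 genes was 565, 535 and 549 CPM in shNC and 470, 471 and 505 in shPNISR.

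The same sign was seen in ZNF genes elsewhere. On the rest of chromosome 19, 108 of 134 were below 0 (median −0.21), and on the other chromosomes 175 of 213 were (median −0.18). The groups did not overlap for 40 of the 134 as lower and 4 as higher, and for 37 of the 213 as lower and 5 as higher. At an unadjusted edgeR p under 0.05, 28 of the 134 and 34 of the 213 were lower. So these counts were not particular to the short arm, and no difference between these sets was tested. The other protein-coding genes of the same 26000000 bases had 99 of 391 below 0 and a median of 0.15, which became −0.03 with GC content and length corrected.

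GC content moved with these fold changes. The median GC content of the members' longest transcripts was 41.9%, against 49.0% for all genes tested and 60.9% for the other genes of the region. For the tested members of clusters 1 to 5 in turn it was 46.6%, 43.5%, 42.4%, 44.05% and 37.3%, so cluster 5 had the lowest. Among genes of under 40% GC, 78.2% were below 0 with a median of −0.15, and 17 of the 19 members of that class were below 0 with a median of −0.42. In that class 333 of the 2297 genes and 9 of the 19 members were lower without overlap. Without ZNF253, 8 of 18 members were lower without overlap and 16 of 18 were below 0. After each library was corrected for GC content and exon length, the member median was −0.15 and that of cluster 5 −0.29. That of ZNF genes on the rest of chromosome 19 was −0.16, and on other chromosomes −0.20. Over all genes tested the corrected median was −0.03, and over those of under 40% GC −0.01. ZNF253 had a log2 fold change of −5.08 after the correction (edgeR adjusted p 0.000147). The part of GC content in the smaller changes was not tested beyond this correction.

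**Figure D5:**
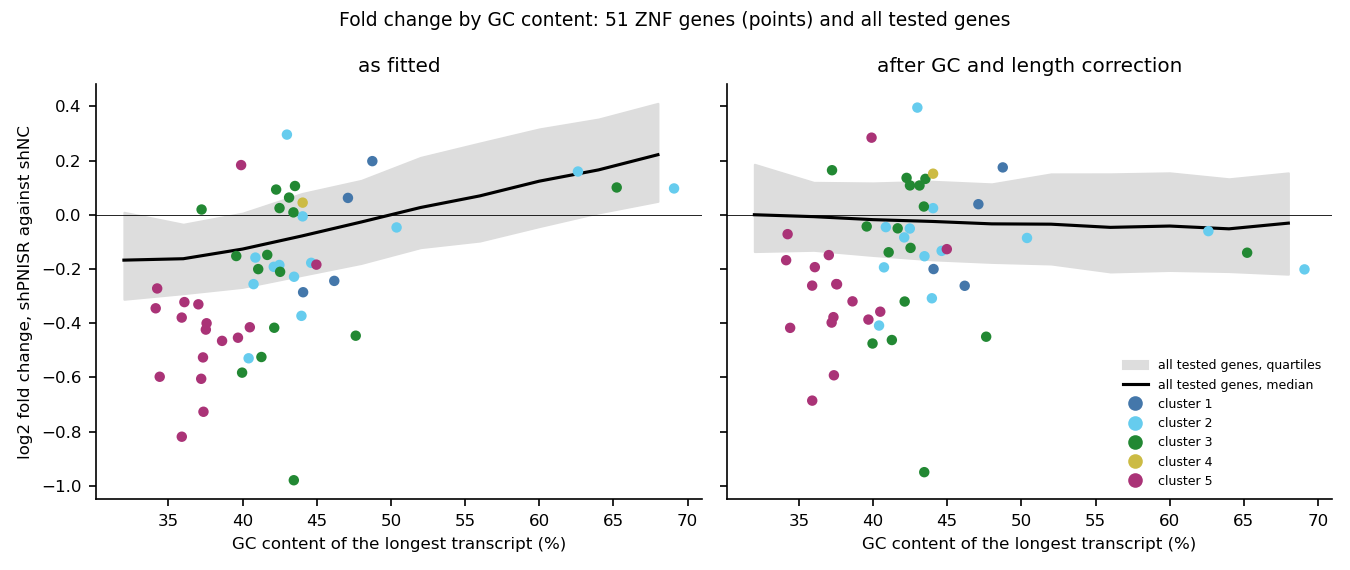
Log2 fold change against GC content of the longest transcript, as fitted (left) and corrected for GC and length (right), for 51 members (points, coloured by cluster; ZNF253 is off the scale and left out) over the median and quartiles of all genes tested. The line of all genes slopes upward on the left and is nearly flat on the right, where most cluster 5 points still lie under it.

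The fold changes were also set beside features of the proteins. The 46 tested members with a KRAB match had a median of −0.24 and the 6 without one −0.16. The 20 with more than 13 fingers had a median of −0.28 and the other 32 a median of −0.19. These differences were not tested.

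The partners of KRAB proteins were given from a list of 26 genes, all tested, of which 2 passed as lower, where 0.832% of all genes did. DNMT3B, a de novo DNA methyltransferase, fell from 34.5 ± 3.62 to 21.1 ± 3.09 CPM (log2 fold change −0.71 ± 0.14, edgeR adjusted p 0.00951). HDAC1, a histone deacetylase, fell from 419 ± 12.3 to 302 ± 24.9 CPM (−0.47 ± 0.11, edgeR adjusted p 0.0224). The HDAC1 call was lost without shNC 1, shPNISR 1 or shPNISR 3, at edgeR adjusted p of 0.0770, 0.1002 and 0.0721. TRIM28, which binds the KRAB box, had 630 ± 41.0 and 645 ± 40.6 CPM (0.03 ± 0.11, edgeR adjusted p 0.907). Its log2 fold change turned to −0.18 with GC content and length corrected (edgeR adjusted p 0.404). With shNC 2 left out as well it was −0.28 (edgeR adjusted p 0.0971). SETDB1 had a log2 fold change of −0.07 ± 0.12. The list's median was −0.08, with 17 of 26 below 0.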

How the data were processed

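RNA was sequenced from 6 libraries, 3 per group. The authors deposited raw read counts for 60664 gene IDs, without normalization. HISAT2 2.0.4 and GRCh38 are named per the submitters' processing notes. For the counter, annotation release and strand setting, the sources used here give nothing, so reads of overlapping, antisense or near-identical genes cannot be separated. Genes were filtered with filterByExpr (minimum count 10, total 15) and scaled by TMM, and groups were compared in edgeR 4.0.16 (R 4.3.3) by a two-sided robust quasi-likelihood test with Benjamini-Hochberg adjustment at 0.05. CPM is TMM-scaled. DESeq2 1.42.0, limma 3.58.1 and a loess correction for GC content and length (span 0.4) were alternatives. Positions and exons came from GENCODE 29, and promoters from RefSeq. Named genes were PNISR, TRIM28, members that passed, the 3 highest per cluster, the 4 highest and 4 lowest by fold change among expressed members with a mean of at least 1 CPM, called corepressors and the 3 genes on each side of the count limit; others were named after their values were seen. The members and lists were chosen with earlier results of these data known.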

Additional observations from a re-analysis of the deposited data

How the results depend on the processing

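Over all genes, 371 passed as higher and 134 as lower. With no low-count filter these were 642 and 354, and with GC and length correction and shNC 2 left out, chosen after seeing the data, 1167 and 1338. Library totals gave 71 lower and DESeq2 229. Leaving out 1 library gave 133 to 1284 higher and 30 to 746 lower, the highest of both without shNC 2. Among the members, 1 passed as lower with all libraries, 3 with no filter, 2 with DESeq2, 2 with limma voom, 2 with the correction and shNC 2 left out, and 1 to 6 with 1 library left out. With that last correction 1 member, ZNF558, passed as higher, and leave-one-out gave 0 to 0. Of the KRAB partners 6 passed as lower with the correction and shNC 2 left out, and 1 to 3 with 1 library left out. The member median ran from −0.33 to −0.19 with 1 library left out, that of the KRAB partners from −0.14 to −0.083, that of ZNF554 to ZNF77 from −0.12 to −0.0089, that of ZNF557 to ZNF846 from −0.24 to −0.093, that of ZNF653 to ZNF791 from −0.24 to −0.066, that of ZNF333 from −0.071 to 0.13 and that of ZNF101 to ZNF254 from −0.61 to −0.38. For ZNF557 to ZNF846 the correction gave −0.085, and −0.073 with shNC 2 left out as well. Same-numbered libraries of the groups had correlations of 0.119, −0.0814 and −0.150, so the numbers were not taken as a pairing. With the replicate number as a block, 390 genes passed as higher and 118 as lower, 1 member passed as lower, and ZNF253 had a log2 fold change of −5.17. Genes of a few counts, such as ZNF66, ZNF442 and ZNF492, are limited by depth.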
